A study of Mus musculus with 18 samples.

Results

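The 10 genes described here are the IL-6 family receptor genes Osmr, Il6st and Il6ra, the signalling genes Stat3, Socs3 and Cebpd, and the acute-phase genes Serpina3n, Lcn2, Timp1 and Cp, of 18193 genes with a symbol of their own on an Affymetrix mouse array. They were taken by symbol from the platform annotation, which gave 29 probe sets of 45037. RNA came from Ppt1 knockout mice at 3, 5 and 8 months of age and from wild-type mice at the same ages, with 3 arrays in each of the 6 groups. There were 2 males and 1 female among the knockout mice at 8 months, and 1 male and 2 females in every other group. The labels used here give neither a strain nor the allele. Each group holds both sexes and so more than 1 mouse. The labels do not say whether arrays of the same sex in a group are from separate mice, so the spread behind each p-value may be technical in part. The source is labelled with brain and cochlea together. The genes were chosen by their pathway and selected on differences between knockout and wild type seen earlier on these same arrays, so those differences are given as a description, with standard errors and no test.

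The product of Ppt1 works in lysosomes, where it cleaves palmitate off proteins. Cytokines of the IL-6 family, among them interleukin-6, oncostatin M and leukaemia inhibitory factor, bind receptor chains that pair with the shared subunit encoded by Il6st. Janus kinases attached to that subunit then phosphorylate Stat3, which enters the nucleus and activates genes that include Socs3, a feedback inhibitor of the same receptor. In liver this pathway drives the acute-phase response, and in brain it is known for its part in the reaction of astrocytes to injury and degeneration.

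RefSeq promoter sequences of assembly GRCm38.p6, covering 250 bases before to 50 after the gene start, were found for 9 of the 10 genes, which gave 10 promoters. The motif TTCNNNGAA, a spacing to which Stat factors bind, occurred in 1 of the 10, that of Socs3, and in 8.3% of all 32851 promoters in the table. The shorter TTCNNGAA occurred in 0 of the 10 and in 8.52% of all. TTGCNNAA, which covers the core of C/EBP sites, occurred on either strand in 2 of the 10, those of Lcn2 and of 1 of the 2 Cp promoters, and in 10.8% of all. Socs3 and Lcn2 are shown because each holds a match, marked in capitals, and Serpina3n is shown as the gene that differed most between genotypes and whose window holds no match to these motifs. The Socs3 match, TTCTTAGAA, lies at bases -154 to -146 from the gene start and the Lcn2 match, TTGCTCAA, at -216 to -209. A match is only a match of letters, and the arrays hold no measurement of binding.
Socs3, minus strand of chr11:117969317-117969616: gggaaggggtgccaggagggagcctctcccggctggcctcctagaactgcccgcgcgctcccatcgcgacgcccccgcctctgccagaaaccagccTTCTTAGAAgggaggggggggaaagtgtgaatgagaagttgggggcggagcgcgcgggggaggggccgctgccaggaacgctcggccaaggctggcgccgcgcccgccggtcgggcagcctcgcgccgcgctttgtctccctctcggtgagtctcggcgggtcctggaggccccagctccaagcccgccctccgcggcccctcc
Lcn2, minus strand of chr2:32387690-32387989: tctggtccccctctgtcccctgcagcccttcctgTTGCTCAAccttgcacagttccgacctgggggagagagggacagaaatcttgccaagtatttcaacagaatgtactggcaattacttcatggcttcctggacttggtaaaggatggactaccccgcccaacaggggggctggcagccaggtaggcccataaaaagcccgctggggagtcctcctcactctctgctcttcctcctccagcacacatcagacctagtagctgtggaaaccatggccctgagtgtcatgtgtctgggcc
Serpina3n, plus strand of chr12:104406458-104406757: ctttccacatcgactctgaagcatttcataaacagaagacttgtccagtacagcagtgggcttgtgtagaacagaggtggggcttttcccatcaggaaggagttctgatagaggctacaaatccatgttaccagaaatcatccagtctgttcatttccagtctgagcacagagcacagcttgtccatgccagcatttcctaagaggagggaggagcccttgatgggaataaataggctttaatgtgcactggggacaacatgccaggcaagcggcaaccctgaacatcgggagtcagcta

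Values are the deposited signals of probe sets on a linear scale, and the number of arrays limits their precision. Probe sets differ in brightness for reasons of their own, so levels are compared between groups of arrays and not between probe sets. The Ppt1 probe set 1422467_at, which checks the labels, had a median of 13.1 (0.879 to 23.4) on the 9 knockout arrays, against a median of 589 (543 to 629) on the 9 wild-type arrays. Array medians lay between 43.17 and 46.09, and the background, taken as the 95th percentile of 27 bacterial control probe sets, lay between 9.24 and 19.2. Of 10 cochlear markers 3 passed the filter on dim probe sets and Oc90 was at background on every array, while 6 of 6 neuronal markers passed. The hybridisation controls of replicate 3 of the 8-month knockout group stood on average 0.43 above their medians over the arrays on the log2 scale, against -0.2 to 0.2 on the others. That array stands apart in several results below. Of the 29 probe sets 24 passed the filter, which drops the dimmest 40% of the array by mean level, and each gene kept at least 1. The 5 dim ones were 1418675_at and 1459217_at of Osmr, 1422270_a_at of Il6ra, 1456605_at of Cebpd and 1441326_at of Cp.

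Among the receptors, Osmr was higher in knockout mice at every age, Il6st was modestly higher by its brightest probe set, and Il6ra was close to background in both genotypes. Osmr encodes the chain that binds oncostatin M. Its probe set 1418674_at read 82.6, 89 and 79.9 in knockout mice at 3 months, 242, 168 and 142 at 5 months and 392, 379 and 199 at 8 months. In wild-type mice it read 37.3, 31.2 and 25.5 at 3 months, 32.2, 44.6 and 44.2 at 5 months and 60.6, 20.5 and 27.5 at 8 months. The lowest knockout array lay above the highest wild-type array, the knockout groups stood in the order 8, 5 and 3 months with the 8- and 5-month groups overlapping, and the 3 wild-type groups overlapped one another. The difference on the scale log2(signal + 16), knockout minus wild type, was 1.08 ± 0.25, 1.81 ± 0.25 and 2.66 ± 0.25 at 3, 5 and 8 months, the last equal to 6.32-fold on that scale. This scale understates the fold of dim probe sets. The dim Osmr probe set 1418675_at differed by -0.08 at 3 months, 1.22 at 5 months and 1.69 at 8 months, with 1 of 9 knockout arrays and 5 of 9 wild-type arrays at background. The other dim one, 1459217_at, was at background on 14 of 18 arrays.

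**Figure D1:**
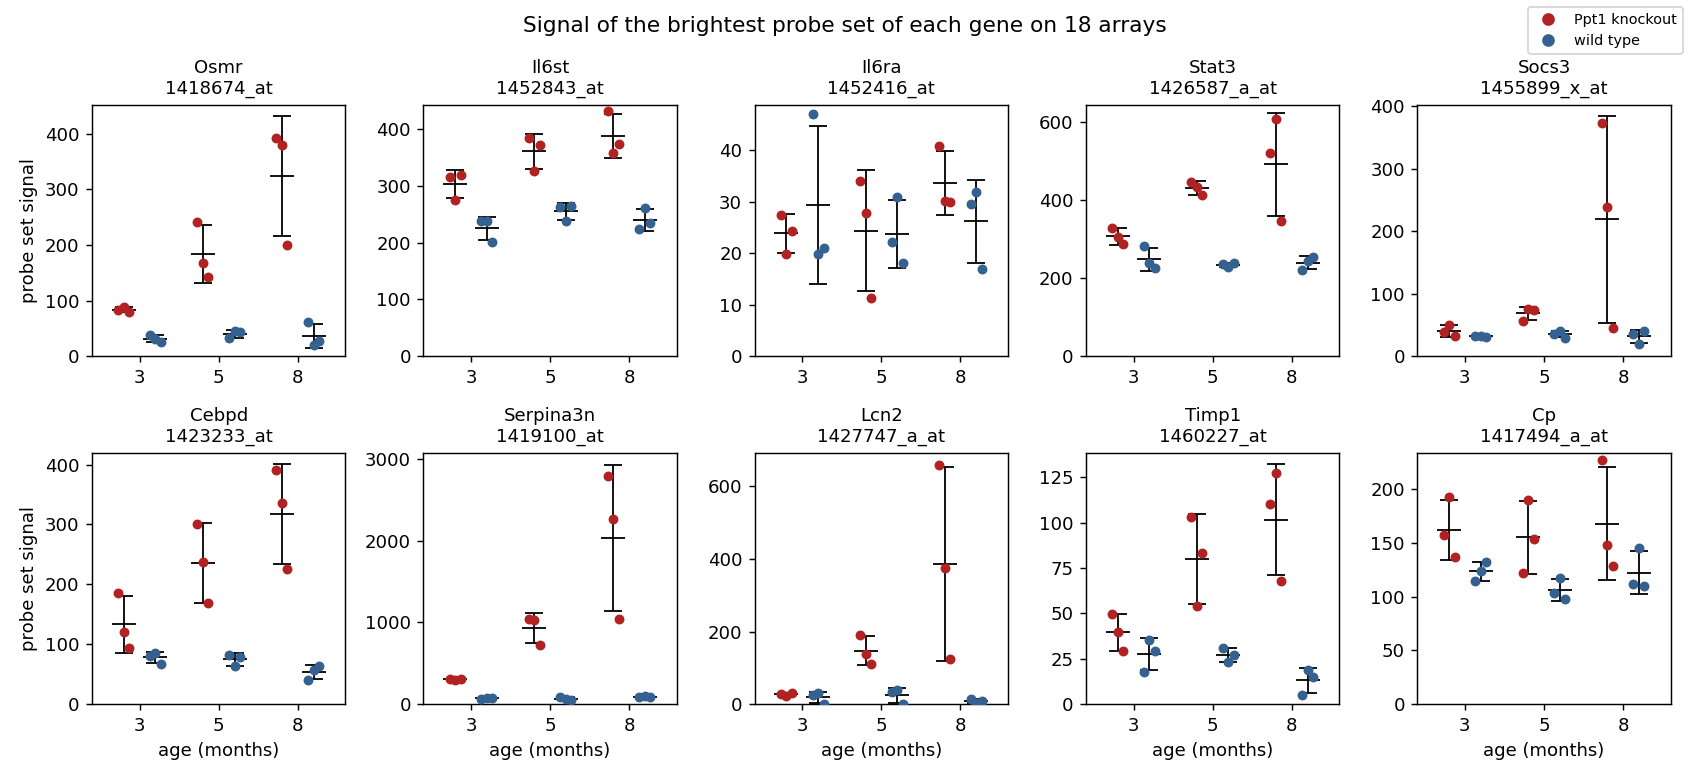
Signal of the brightest probe set of each of the 10 genes (vertical axes, linear scale, starting at 0) on each of the 18 arrays by age in months, with knockout points to the left of wild-type points and the mean and SD of each group of 3 as bars. Serpina3n, Osmr and Lcn2 climb with age in knockout mice, to 2790, 392 and 659 on the highest 8-month array, while their wild-type points stay at or below 102, 60.6 and 39.6.

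Il6st, the signal-transducing subunit of the family, had 4 probe sets that passed, and they did not go the same way. The brightest, 1452843_at, read 316, 275 and 318 in knockout mice at 3 months, 384, 326 and 371 at 5 months and 431, 358 and 374 at 8 months. In wild-type mice it read 237, 237 and 201 at 3 months, 263, 238 and 264 at 5 months and 224, 261 and 235 at 8 months. Every knockout array lay above every wild-type array, with 275 as the lowest knockout and 264 as the highest wild-type reading. The differences of the group means on the log2 scale were 0.40 ± 0.10, 0.47 ± 0.10 and 0.63 ± 0.10 at 3, 5 and 8 months. The probe set 1437303_at lay lower in knockout mice, with 58.3 to 71.2, 78.7 to 96 and 95.3 to 96.6 at 3, 5 and 8 months in knockout mice and 79 to 115, 115 to 165 and 105 to 109 in wild-type mice. At each age its knockout arrays all lay below its wild-type arrays, with differences of -0.46 ± 0.15, -0.55 ± 0.15 and -0.17 ± 0.15. For 1460295_s_at the knockout arrays lay above the wild-type arrays at 3 and 8 months, with mean differences of 0.49 ± 0.11 and 0.23 ± 0.11, and overlapped them at 5 months (0.10 ± 0.11). The 1421239_at values overlapped at all 3 ages, with differences of 0.30 ± 0.19, 0.01 ± 0.19 and -0.05 ± 0.20. Which transcripts these probe sets detect was not tested, so the direction for Il6st holds for the probe set named.

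**Figure D2:**
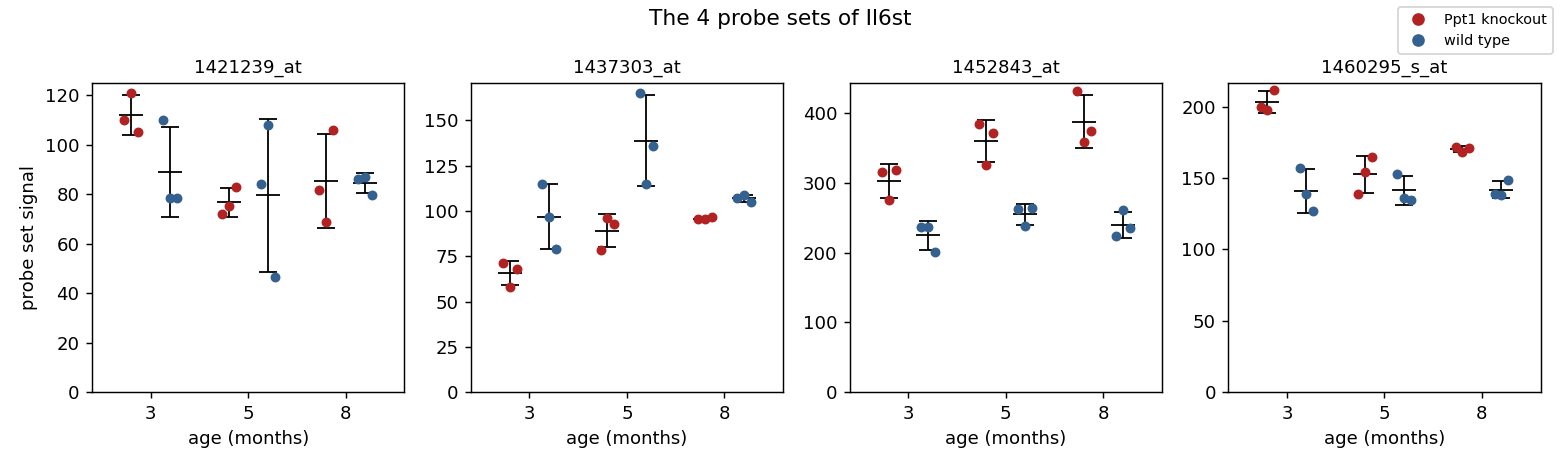
Signal of the 4 Il6st probe sets (vertical axes, linear scale, starting at 0) on each array by age in months, knockout points to the left of wild-type points, with the mean and SD of each group of 3. Probe set 1452843_at is higher and 1437303_at lower in knockout mice at all 3 ages.

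Il6ra, the chain that binds interleukin-6 itself, read 19.9 to 27.4, 11.3 to 34 and 30 to 40.8 in knockout mice at 3, 5 and 8 months by 1452416_at, against 19.9 to 47, 18.1 to 30.9 and 17 to 31.8 in wild-type mice. The groups overlapped at every age, and the difference as a mean over ages was 0.00 ± 0.14. The dim probe set 1422270_a_at differed by -0.36, -0.04 and -0.29 at 3, 5 and 8 months, with 5 of 18 arrays at background.

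Of the signalling genes, Stat3 was higher in knockout mice from 3 months on, Cebpd differed more, and Socs3 stood far above wild type on 2 of the 3 knockout arrays at 8 months. Stat3 1426587_a_at read 330, 306 and 287 in knockout mice at 3 months, 448, 435 and 413 at 5 months and 522, 608 and 347 at 8 months. In wild-type mice it read 283, 238 and 226 at 3 months, 236, 228 and 238 at 5 months and 222, 245 and 254 at 8 months. No wild-type array reached the lowest knockout array, although the margin at 3 months was narrow, at 287 in knockout against 283 in wild type. The differences were 0.29 ± 0.14, 0.84 ± 0.14 and 0.96 ± 0.14 at 3, 5 and 8 months, and the next brightest probe set, 1460700_at, gave 0.30 ± 0.12, 0.64 ± 0.12 and 0.83 ± 0.12. The dimmer 1459961_a_at gave 0.70 ± 0.29, 0.57 ± 0.29 and 0.53 ± 0.29. The dim 1424272_at went the other way at 8 months, with 22.9, 5.2 and 28.3 in knockout mice, against 30.8, 39.1 and 41.2 in wild-type mice (-0.71 ± 0.36).

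Socs3, the feedback inhibitor, read 38.8, 50.3 and 32.2 in knockout mice at 3 months, 56.1, 74.8 and 74.3 at 5 months and 374, 238 and 45.1 at 8 months by 1455899_x_at. Wild-type mice gave 31.7, 33.1 and 31.5 at 3 months, 36.2, 40.5 and 29.8 at 5 months and 35.1, 20.2 and 40.5 at 8 months. Replicate 3 at 8 months lay within the range of the knockout arrays at 3 months. The difference was 0.22 ± 0.40, 0.71 ± 0.40 and 2.00 ± 0.40 at 3, 5 and 8 months, and the other 2 Socs3 probe sets gave 1.69 ± 0.35 (1416576_at) and 1.82 ± 0.41 (1456212_x_at) at 8 months. An x_at probe set can also bind similar transcripts, whereas 1416576_at is not of that type, and it had the same 2 high arrays at 8 months (165 and 116, with replicate 3 at 49.5).

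Cebpd encodes the transcription factor C/EBP delta, which is induced in the acute-phase response. Its probe set 1423233_at read 185, 121 and 93.3 in knockout mice at 3 months, 301, 237 and 169 at 5 months and 391, 336 and 226 at 8 months. The wild-type readings were 81.2, 85.8 and 67.4 at 3 months, 81.7, 63.1 and 79.2 at 5 months and 40.5, 57.3 and 64.2 at 8 months. All 9 knockout arrays lay above all 9 wild-type arrays, and neighbouring knockout ages overlapped. The difference was 0.62 ± 0.22, 1.45 ± 0.22 and 2.19 ± 0.22 at 3, 5 and 8 months. The dim probe set 1456605_at went the other way at 3 months, with differences of -0.44, 0.65 and 0.74 at 3, 5 and 8 months. It was at background on 3 of 9 knockout arrays and 7 of 9 wild-type arrays. Every wild-type array was at background at 5 and 8 months, which gives a knockout level at least 1.11-fold and at least 1.36-fold higher.

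The acute-phase genes held the widest span, with Serpina3n at one end and Cp at the other. Serpina3n, a secreted serine protease inhibitor, read 310, 299 and 304 in knockout mice at 3 months, 1040, 1030 and 719 at 5 months and 2790, 2270 and 1040 at 8 months by 1419100_at. Wild-type mice gave 61.8, 73 and 80.3 at 3 months, 87.4, 70.1 and 47.6 at 5 months and 89.6, 102 and 86.1 at 8 months. The 3-month knockout arrays were close together, at 305 ± 5.66 (SD, n = 3), and all above every wild-type array of any age. The difference of 1.88 ± 0.24, 3.50 ± 0.24 and 4.12 ± 0.24 at 3, 5 and 8 months was the largest of the 24 probe sets at each age, and corresponds to 3.67-fold, 11.3-fold and 17.4-fold on the log2(signal + 16) scale. This was the only probe set with the symbol Serpina3n, and the gene belongs to a cluster of similar serpins, of which 2 of 10 listed paralogues had a probe set of their own and 0 passed the filter.

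Lcn2, which encodes lipocalin 2, a carrier of iron-binding siderophores, read 28.7, 22.5 and 31.5 in knockout mice at 3 months, 191, 138 and 112 at 5 months and 659, 374 and 125 at 8 months. In wild-type mice 1427747_a_at read 25.9, 30.1 and 0.738 at 3 months, 32.8, 39.6 and 1.18 at 5 months and 13.4, 2.29 and 7.95 at 8 months, with 1, 1 and 2 of the 3 arrays at background. The genotypes overlapped at 3 months and were apart at 5 and 8 months. The difference was 0.45 ± 0.45, 2.15 ± 0.45 and 3.72 ± 0.46.

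Timp1, an inhibitor of matrix metalloproteinases, read 49.8, 39.6 and 29.3 in knockout mice at 3 months, 103, 54 and 83 at 5 months and 110, 127 and 67.9 at 8 months by 1460227_at. The wild-type readings were 18, 35.5 and 29.5 at 3 months, 30.9, 23.1 and 27 at 5 months and 5.33, 18.9 and 15.1 at 8 months. The groups overlapped at 3 months and were apart at 5 and 8 months, with differences of 0.35 ± 0.26, 1.13 ± 0.26 and 2.04 ± 0.26. The wild-type arrays at 8 months were also the lowest for this probe set, apart from 1 array at 3 months (18, against a highest 8-month value of 18.9).

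Cp encodes ceruloplasmin, a copper-containing ferroxidase that astrocytes carry on their surface. Its brightest probe set, 1417494_a_at, read 157, 192 and 137 in knockout mice at 3 months, 122, 190 and 153 at 5 months and 227, 148 and 128 at 8 months. Wild-type mice gave 114, 124 and 132 at 3 months, 103, 117 and 97.6 at 5 months and 112, 145 and 110 at 8 months. The differences were 0.34 ± 0.18, 0.47 ± 0.18 and 0.42 ± 0.18, and the genotypes overlapped at 8 months. The 6 other Cp probe sets that passed differed by 0.37 to 0.70 as a mean over ages. Of these, 1448735_at was apart over all arrays, by a narrow margin, at 62.5 to 169 in knockout mice and 38.7 to 62.4 in wild-type mice. Several of these probe sets were designed from the same sequence record and are not independent of each other. The dim 1441326_at was at background on 13 of 18 arrays.

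Over the 10 brightest probe sets the median differences at 3, 5 and 8 months were 0.38, 0.99 and 2.02, against medians of 0.01, -0.01 and -0.02 over all 27022 probe sets tested. On the log2 scale the genes differed in how much of the 8-month difference was reached at 3 months. By the brightest probe set that share was 64% for Il6st, 45.5% for Serpina3n, 40.7% for Osmr, 30.3% for Stat3, 28.6% for Cebpd and 81.8% for Cp. Other probe sets gave -621% to 263% for Il6st, -46.4% to 133% for Stat3 and 1.13% to 201% for Cp. The dim Osmr 1418675_at and Cebpd 1456605_at differed by -0.08 and -0.44 at 3 months, against 1.69 and 0.74 at 8 months. The shares of Osmr and Cebpd therefore hold for the brightest probe set only. The shares of Cebpd and Stat3 are rough too. With 1 array left out their 3-month differences ran from 0.40 to 0.81 and from 0.22 to 0.41. For Timp1, Lcn2 and Socs3 the 3-month difference moved too much with single arrays for a share, since with 1 array left out it ran from 0.16 to 0.51 for Timp1, 0.02 to 0.78 for Lcn2 and 0.12 to 0.36 for Socs3. The difference of Il6ra was near 0 at each age, so it has no share. All 3 knockout arrays lay above all 3 wild-type arrays for 13 of the 24 probe sets at 3 months, 16 at 5 months and 16 at 8 months, beside 9.83%, 10.2% and 11.7% of all probe sets tested. All knockout arrays lay below for 1, 1 and 2 of the 24 at 3, 5 and 8 months, beside 8.61%, 10.1% and 14.3%. Over all ages, 7 probe sets of 6 genes had all 9 knockout arrays above all 9 wild-type arrays, beside 1.13%, and 0 had them all below, beside 0.377%. These counts describe genes that were chosen for such differences.

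**Figure D3:**
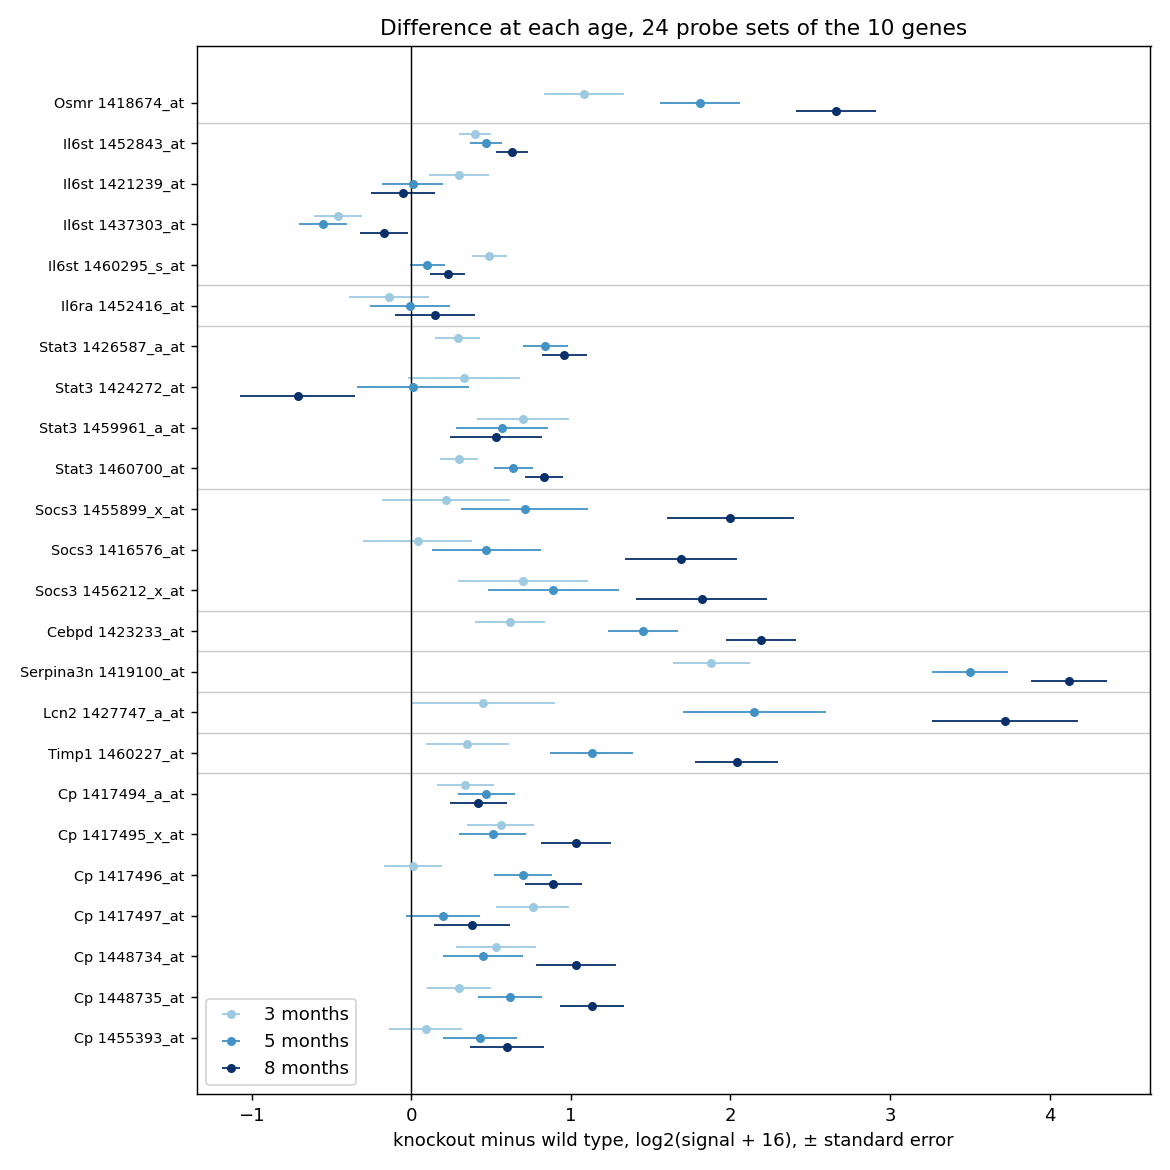
Difference between knockout and wild type on the log2(signal + 16) scale (horizontal axis, points with standard errors) for the 24 probe sets of the 10 genes that passed the filter, at 3, 5 and 8 months from light to dark blue. Serpina3n reaches 4.12 and Lcn2 3.72 at 8 months, while the Il6ra points stay within 0.15 of 0 and the 1437303_at points of Il6st lie below 0.

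Whether levels changed with age, and whether the difference between genotypes changed with age, was tested with limma over all 27022 probe sets, with Benjamini-Hochberg adjustment and a threshold of 0.05. These tests use the same arrays from which the genes were chosen, and are not independent of that choice. In knockout mice, 12 of the 24 probe sets, of 8 genes, rose between 3 and 8 months, beside 2.9% of all probe sets tested. Serpina3n rose by 2.56 ± 0.24 on the log2 scale (adjusted p = 5.56e-06), Lcn2 by 2.83 ± 0.46 (adjusted p = 0.00122) and Osmr by 1.65 ± 0.25 (adjusted p = 0.000703). Cebpd rose by 1.12 ± 0.22 (adjusted p = 0.00511), Timp1 by 1.09 ± 0.26 (adjusted p = 0.0181) and Stat3 1426587_a_at by 0.62 ± 0.14 (adjusted p = 0.0127). For these 6 genes every 8-month knockout array lay above every 3-month one, which adds no support, since they are named for passing this comparison. The share of all probe sets with such a separation was not counted. Socs3 1455899_x_at rose by 1.75 ± 0.40 (adjusted p = 0.0145), with replicate 3 at 8 months, at 45.1, below the highest 3-month array at 50.3. The other 2 Socs3 probe sets, Stat3 1460700_at and 2 Cp probe sets, 1417496_at and 1448735_at, also rose. Those 2 Socs3 probe sets had wild-type mean log2 levels of 5.17 and 5.24, below the filter limit of 5.36. Like Lcn2 and Timp1, they passed the filter through the knockout arrays, where they are high. Their calls among the 12 are therefore no independent support. Il6st 1452843_at, at 0.31 ± 0.10 (adjusted p = 0.0824), Il6ra and the brightest Cp probe set did not pass.

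Between 3 and 5 months in knockout mice 1 of 24 passed, Serpina3n, which rose by 1.54 ± 0.24 (adjusted p = 0.0123), beside 0.152% of all probe sets. Between 5 and 8 months 0 of 24 passed by limma, beside 0.0037% of all probe sets, and 9 of 24 had an unadjusted p under 0.05, beside 14% of all. Serpina3n was the nearest to the threshold, at 1.01 ± 0.24 (adjusted p = 0.0934). In wild-type mice 0 of 24 passed between 3 and 5 months (0% of all), 5 and 8 months (0% of all) or 3 and 8 months (0.0296% of all), with 3, 2 and 2 of 24 at an unadjusted p under 0.05, beside 4.02%, 8.11% and 6.73% of all. Males and females did not differ past the threshold in any of the 24 probe sets (0 at an unadjusted p under 0.05, 0.0703% of all called).

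The difference between genotypes was larger at 8 than at 3 months for 5 of the 24 probe sets, beside 0.718% of all probe sets. The increase was 2.25 ± 0.34 for Serpina3n (adjusted p = 0.00376), 3.27 ± 0.65 for Lcn2 (adjusted p = 0.0177) and 1.56 ± 0.31 for Cebpd (adjusted p = 0.0195). It was 1.68 ± 0.37 for Timp1 (adjusted p = 0.0277) and 1.58 ± 0.35 for Osmr (adjusted p = 0.0338). The Lcn2 and Timp1 probe sets passed the filter on dim probe sets through the knockout arrays, where they are high, since their wild-type mean log2 levels of 4.90 and 5.23 lie below its limit of 5.36. Stat3 1426587_a_at gained 0.67 ± 0.20 (adjusted p = 0.106) and Socs3 1455899_x_at 1.78 ± 0.57 (adjusted p = 0.131), which did not pass. Between 3 and 5 months, and between 5 and 8 months, 0 of 24 passed by limma (0% of all in each), with 7 and 6 of 24 at an unadjusted p under 0.05, beside 5.96% and 11.4% of all. The count of 5 was 0 with a variance model without a trend. It was 3, 1 and 12 without replicate 1, 2 or 3 of the 8-month knockout group, and 3, 3 and 2 without replicate 1, 2 or 3 of the 3-month knockout group. It was 1 and 3 without replicate 2 or 3 of the 3-month wild-type group, and 2 and 3 without replicate 1 or 3 of the 8-month wild-type group. The 12 probe sets that rose between 3 and 8 months in knockout mice became 6 and 4 without replicate 1 or 2 of the 8-month group, and 6 without replicate 3 of the 3-month group. The Serpina3n call between 3 and 5 months was lost without any 1 of the 3 arrays of the 3-month group, or replicate 1 or 2 of the 5-month group, and 2, 2 and 5 probe sets passed without replicate 1 of the 8-month knockout group, replicate 3 of the 5-month wild-type group, or replicate 3 of the 8-month knockout group.

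At 8 months the 3 knockout arrays were far apart, and replicate 3, from a male, was mostly the lowest. It was the lowest of the 3 in 17 of the 24 probe sets (70.8%), against 35.1% of all probe sets tested and 87.4% of the 301 whose difference at 8 months exceeded 1. Relative to the 8-month wild-type mean, Serpina3n stood at 4.70, 4.40 and 3.29 on the 3 arrays, Lcn2 at 4.85, 4.06 and 2.59, and Socs3 at 3.05, 2.43 and 0.38. For the brightest probe sets this array lay between 0.46 below and 0.24 above the 5-month knockout mean. With this array left out, 16 of the 24 probe sets rose in knockout mice between 3 and 8 months (15.9% of all probe sets passed in either direction) and 10 between 5 and 8 months (9.47% of all). The difference between genotypes then grew from 3 to 8 months for 12 probe sets of 8 genes (7.28% of all), Stat3 at 0.88 ± 0.14 (adjusted p = 0.000546) and Socs3 at 2.51 ± 0.31 (adjusted p = 2.45e-05) among them, and from 5 to 8 months for 6 probe sets (4.02% of all). This array is singled out because it read lowest in these same genes. Leaving it out raises their 8-month level and narrows the spread, so the calls made without it are no independent support. With the other pair left out instead, an alternative added after the data were seen, the 8-month knockout group is a single array that is assumed to vary like the other groups. In that setting Serpina3n alone passed, at 1.65 ± 0.23 between 3 and 8 months in knockout mice (adjusted p = 0.00106, 0.348% of all) and at 1.34 ± 0.27 for the change of the difference (adjusted p = 0.0316, 0.315% of all). Stat3 there stood at 0.12 ± 0.14 (adjusted p = 0.84) and Osmr at 0.92 ± 0.31 (adjusted p = 0.291) between 3 and 8 months in knockout mice.

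**Figure D4:**
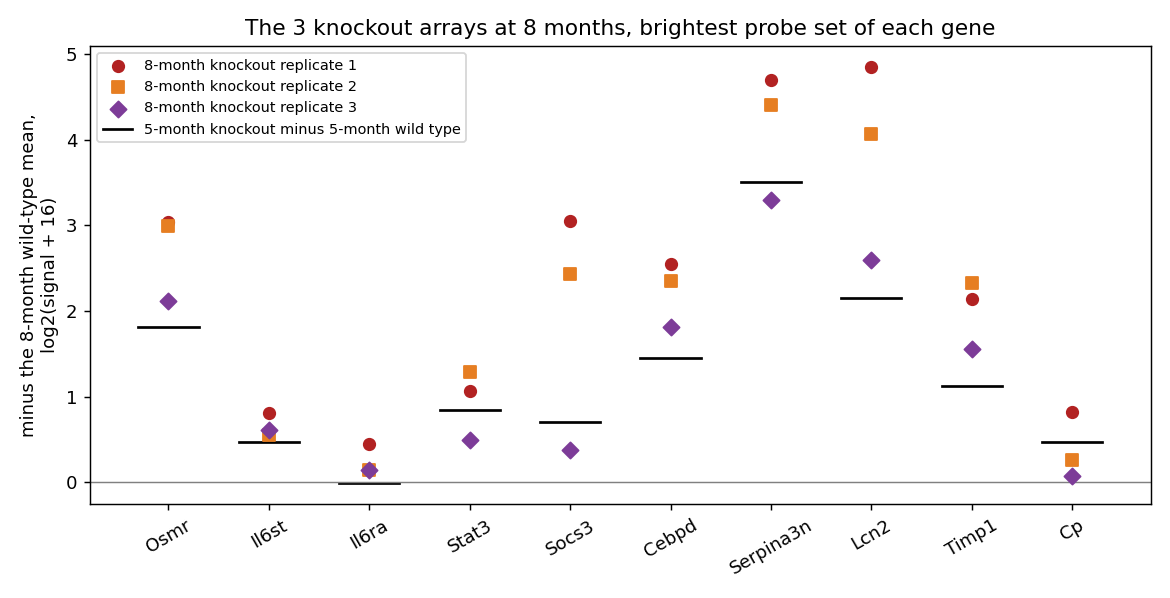
Level of each 8-month knockout array minus the mean of the 8-month wild-type arrays (vertical axis, log2(signal + 16) scale) for the brightest probe set of each of the 10 genes, with the 5-month difference between genotypes as a bar. Replicate 3 (diamonds) lies below the other 2 for Serpina3n, Lcn2, Socs3, Osmr, Cebpd, Timp1 and Stat3, and near the 5-month bar for most genes.

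Markers of some cell types differed between the genotypes. As a mean over ages, 8.39% of 12496 genes were higher in knockout mice and 6.43% lower. Of 5 oligodendrocyte and 7 choroid plexus markers 0 differed, and of 7 endothelial markers 1 was higher. In bulk RNA, more cells of a type and more RNA per cell cannot be told apart. Of 8 astrocyte markers, which do not include the genes described here, 6 were higher in knockout mice as a mean over ages, and their summed signal was 11960 to 12530, 14070 to 14760 and 14920 to 18900 in knockout mice at 3, 5 and 8 months, against 11590 to 12080, 10760 to 12020 and 10910 to 11710 in wild-type mice. Of 8 microglia and macrophage markers 6 were higher, with sums of 3131 to 3360, 3953 to 4216 and 3642 to 6493 in knockout mice, against 2027 to 2246, 2175 to 2555 and 2577 to 2727 in wild-type mice. On the 3 knockout arrays at 8 months the astrocyte sum was 18900, 18320 and 14920 and the microglial sum 5422, 6493 and 3642, so that replicate 3 was the lowest for these markers too. Of 8 markers of meninges and fibroblasts, cells in which Timp1 and Osmr are also expressed, 6 were higher, with sums on the 8-month knockout arrays of 1583, 1948 and 1165, against 961.8 to 1043 on the 8-month wild-type arrays. Lcn2 is abundant in neutrophils, of whose 8 markers on the array 3 passed the filter and 0 differed. Their sum was 205.4 to 236.6, 148.8 to 260.4 and 202.2 to 625.2 in knockout mice at 3, 5 and 8 months, against 143.6 to 267.6, 134.4 to 446.9 and 286.9 to 452.7 in wild-type mice. On replicates 1, 2 and 3 of the 8-month knockout group it was 625.2, 364.8 and 202.2, in the same order as Lcn2 at 659, 374 and 125. The astrocyte sum and Serpina3n had this order too, so the order is not particular to neutrophil markers. On the 8-month wild-type arrays the neutrophil sum was 286.9, 452.7 and 393.6, with Lcn2 at 13.4, 2.29 and 7.95. Of 6 neuronal markers 2 were lower, with sums of 22740 to 24010, 23320 to 23600 and 21580 to 25320 in knockout mice at 3, 5 and 8 months, against 24430 to 25680, 24510 to 27110 and 25700 to 26100 in wild-type mice. The part of all these markers in the differences of the 10 genes was not tested. The ratio of the 5' to the 3' actin control, a sign of RNA integrity, was 0.507 to 0.542, 0.389 to 0.473 and 0.432 to 0.482 in knockout mice at 3, 5 and 8 months. In wild-type mice it was 0.48 to 0.547, 0.412 to 0.499 and 0.501 to 0.525. The 3-month knockout arrays thus all lay above the later knockout arrays. The part of this ratio in the differences between genotypes or ages was not tested either.

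The other genes of the pathway were counted as a mean over ages on the brightest probe set of each, with adjustment over all 27022 probe sets, where 8.39% of 12496 genes were higher in knockout mice and 6.43% lower. The ligands gave little signal. Of 12 listed ligand genes 8 had a probe set and 1 passed the filter, Ctf1, the gene of cardiotrophin, which did not differ (0.02 ± 0.19, adjusted p = 0.972). Il6 was at background on 9 of 9 knockout arrays and 8 of 9 wild-type arrays, and Il31 on all arrays of both genotypes. Osm, the gene of oncostatin M, had a median of 16.3 (7.48 to 47.3) in knockout mice, against 21.6 (5.89 to 35.4) in wild-type mice, and did not pass the filter. Clcf1 and Ebi3, which encode cytokine subunits, did not pass it either and were not tested. Clcf1 had a median of 25.4 (21.9 to 39.8) in knockout mice, against 15.4 (12.2 to 29.1) in wild-type mice, and Ebi3 one of 23.2 (17.4 to 50.3), against 16.4 (4.44 to 27.3). Each was at background on 0 of 9 knockout arrays and 4 of 9 wild-type arrays. Of the other receptors, Lifr, the chain for leukaemia inhibitory factor, had a median of 535 in knockout mice, against 546 in wild-type mice (-0.02 ± 0.05, adjusted p = 0.827). Cntfr, the chain for ciliary neurotrophic factor, had a median of 222, against 236 (-0.07 ± 0.07, adjusted p = 0.561).

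Among 21 measured genes of Janus kinases, other Stat factors and negative regulators, 2 were higher and 1 lower, a share near that of all genes, with a median difference of 0.01. Ptpn11, a phosphatase that docks on the receptor, was higher by 0.24 ± 0.06 (adjusted p = 0.0096), and Stat6, which acts downstream of interleukin-4, by 0.30 ± 0.09 (adjusted p = 0.0304). Socs5 was lower by 0.16 (-0.16 ± 0.05, adjusted p = 0.0434). The Stat6 call was lost in 13 of 30 alternatives (adjusted p between 0.0134 and 0.125), among them 11 that leave out 1 array, and the Socs5 call in 18 of 31 (adjusted p between 0.00241 and 0.329). Of 4 C/EBP genes 2 were higher, Cebpa by 0.46 ± 0.11 (adjusted p = 0.00866) and Cebpb by 0.44 ± 0.12 (adjusted p = 0.0151), a call lost without replicate 1 of the 3-month wild-type group and without both replicates 1 and 2 of the 8-month knockout group (adjusted p = 0.0683).

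All 6 measured genes among the other acute-phase proteins were higher, of 22 on the array, with a median difference of 0.58 against -0.01 over all genes. A2m, the protease scavenger alpha-2-macroglobulin, had a median of 478 (209 to 1380) in knockout mice, against 175 (132 to 205) in wild-type mice (1.40 ± 0.13, adjusted p = 1.95e-07). Serping1, an inhibitor of complement C1, had a median of 218 (149 to 441), against 114 (87.7 to 137) (0.98 ± 0.10, adjusted p = 3.84e-07). Mt1, a metallothionein, differed by 0.56 ± 0.08 (adjusted p = 7.05e-05) and Itih3, an inter-alpha-trypsin inhibitor chain, by 0.48 ± 0.07 (adjusted p = 3.56e-05). The mean over ages does not hold at each age. At 3 months 1 of the 6 passed as higher, beside 0.912% of all genes. At that age Mt1 averaged 4160 in knockout mice, against 4850 in wild-type mice, and Mt2, another metallothionein, 2040, against 2510. Of 24 measured reactive astrocyte genes linked to Stat3, 15 were higher and 0 lower, with a median of 0.62. Gfap, the astrocyte intermediate filament, had a median of 4010 (1800 to 6310) in knockout mice, against 677 (606 to 745) in wild-type mice (2.32 ± 0.06, adjusted p = 1.37e-16). Cxcl10, a chemokine, differed by 2.23 ± 0.15 (adjusted p = 8.15e-10), Gbp2, an interferon-induced GTPase, by 1.51 ± 0.11 (adjusted p = 3.01e-09) and Vim, the filament vimentin, by 1.44 ± 0.11 (adjusted p = 3.01e-09). Cxcl10 and Gbp2 are also interferon targets. Cxcl10 was dim in wild-type mice, with a median of 18.2 (3.16 to 36.4), as was Icam1, 1 of the 15, with a median of 22.2. Both passed the filter on dim probe sets through the knockout arrays, where they are high, so their calls are no independent support. The lists were drawn up with results of these data known, so their counts are not independent support.

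Of 15 measured TIMPs and metalloproteinases 5 were higher and 1 lower, with a median of 0.10. Timp3, a matrix-bound inhibitor, was higher by 0.39 ± 0.05 (adjusted p = 3.48e-05), Mmp14, a membrane-anchored metalloproteinase, by 0.72 ± 0.12 (adjusted p = 0.000364) and Adamts1 by 0.49 ± 0.08 (adjusted p = 0.000275). The other 2 higher genes were Adam17 and Timp2. Mmp17 was lower (-0.29 ± 0.05, adjusted p = 0.00123). Of 11 measured genes of lipocalin receptors and iron handling 4 were higher and 1 lower, with a median of 0.04. Slc11a1, a metal transporter of phagocytes, was higher by 1.02 ± 0.12 (adjusted p = 2.26e-06) and Hmox1, which degrades haem, by 1.03 ± 0.15 (adjusted p = 6.31e-05). Fth1, the ferritin heavy chain, was higher by 0.14 ± 0.03 (adjusted p = 0.00403) and Cybrd1, an iron reductase, by 0.55 ± 0.14 (adjusted p = 0.0117). Hmox1 and Cybrd1 were dim in wild-type mice, with medians of 20.2 and 22.4. They passed the filter on dim probe sets through the knockout arrays, so their calls are no independent support. Tfrc, the transferrin receptor, was the lower one (-0.20 ± 0.06, adjusted p = 0.0437), a call lost in 15 of 31 alternatives. Over all lists the 3 lower genes became 1 without replicate 1, 2 or 3 of either 3-month group, replicate 1 or 2 of either 5-month group, or replicate 1 of the 8-month wild-type group. Slc22a17, a receptor reported for lipocalin 2, did not pass (-0.02 ± 0.04, adjusted p = 0.767).

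**Figure D5:**
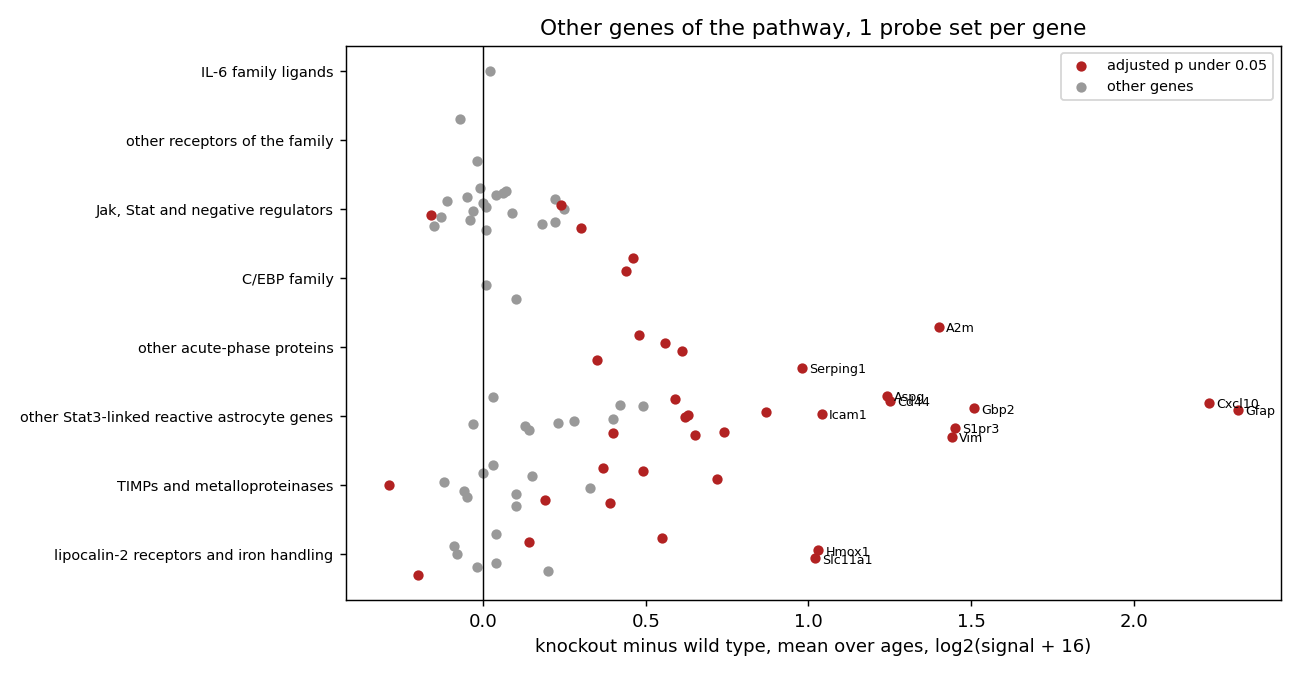
Difference between knockout and wild type as a mean over ages (horizontal axis, log2(signal + 16) scale) for each other gene of the pathway lists, 1 point per measured gene, with those at an adjusted p under 0.05 in red. The acute-phase and reactive astrocyte genes lie mostly right of 0, up to 2.32 for Gfap, while the kinase and Stat genes lie around 0.

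Genes with the most similar course over the 6 group means were found by the root mean square difference of centred log2 means among 12496 genes. For Osmr these were Rhoj and S100a6 (0.21 each) and Ms4a7 (0.22). Rhoj averaged 64.7, 84.9 and 213 in knockout mice at 3, 5 and 8 months, against 11.4, 15.9 and 13.1 in wild-type mice. For Stat3 they were Bmpr1b and Anxa3 (0.04 each) and Pdlim2 (0.05), of which Anxa3, an annexin, averaged 175, 232 and 281 in knockout mice, against 146, 128 and 134 in wild-type mice. For Serpina3n they were Lyz1 (0.28), Lgals3 (0.33) and Lyz2 (0.41), with Lyz1, a lysozyme, at 556, 1700 and 3760 in knockout mice, against 138, 219 and 279 in wild-type mice. A low value means only that the 6 means have a similar shape.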

How the data were processed

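The 18 arrays measured RNA of Ppt1 knockout and of wild-type mice, and the labels gave the groups of genotype and age and the sex. Replicate numbers follow the sample records and pair nothing. The authors deposited linear intensities, 1 per probe set and array. What software and scaling made them is not given in the sources used here. Across arrays, the mean intensity without the lowest and highest 2% was 150 on every array, so no further normalization was applied. Probe sets were named from the platform annotation (34945 with 1 symbol, 932 with several, 9160 with none).

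Values were analysed as log2(signal + 16). After removing 64 control probe sets and the dimmest 40% of the rest by mean, 27022 remained, with a mean of at least 5.36. A model with the 6 groups and a term for sex was fitted with limma 3.58.1 in R 4.3.3 (eBayes with a variance trend), and errors after log2 differences are standard errors of the fit. P-values are two-sided and adjusted after Benjamini and Hochberg over these 27022 probe sets, with a threshold of 0.05. For a group with every array at background, the fold is a lower bound, the brighter group's mean against, per array, the higher of the background and the measured signal.

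The genes and all lists were chosen with earlier results of these data known. The genes named were the 10 with all their probe sets, each ligand and receptor that passed the filter, up to 4 genes per other list with the smallest p that passed, and the 3 genes most like Osmr, Stat3 and Serpina3n. Others named for contrast, such as Il6, Il31, Osm, Clcf1, Ebi3, Slc22a17, Tfrc, Adam17, Timp2, Icam1 and Mt2, were chosen after their values were seen. The fit was checked on simulated data with known changes. Alternatives were other scalings, pseudocounts, filters, variance models and array weights, no sex term, only the groups compared, 1 probe set per gene, and each array left out.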

Additional observations from a re-analysis of the deposited data

Results flagged for a closer look

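The difference between knockout and wild type was larger at 8 than at 3 months, by limma's test of that change, for 5 of the genes. The change was 1.58 ± 0.35 on the log2 scale for Osmr 1418674_at (adjusted p = 0.0338), 2.25 ± 0.34 for Serpina3n 1419100_at (adjusted p = 0.00376) and 1.56 ± 0.31 for Cebpd 1423233_at (adjusted p = 0.0195). It was 3.27 ± 0.65 for Lcn2 1427747_a_at (adjusted p = 0.0177) and 1.68 ± 0.37 for Timp1 1460227_at (adjusted p = 0.0277). For each of the 5, all 3 knockout arrays at 8 months lay above all 3 wild-type arrays of that age, beside 11.7% of all probe sets tested. The 5 were picked for a larger difference at 8 months, so this separation adds no support. At 3 months the arrays were apart in this way for Osmr, Serpina3n and Cebpd, and not for Lcn2 and Timp1, beside 9.83% of all. Lcn2 and Timp1 passed the filter on dim probe sets through the knockout arrays.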

How the results depend on the processing

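Under 31 other settings, 18 of which leave out 1 array, 111 results were recomputed. The sign was compared only for single results that were called, and 0 of these reversed. Among the differences given without a test, those of Il6ra lay on both sides of 0, from -0.24 to 0.06 at 3 months and -0.16 to 0.21 at 5 months. The median difference over the brightest probe sets was 1.4 as a mean over ages and 2.43 at 8 months with a pseudocount of 1, and 0.64 and 1.24 with 64. At 8 months it was 1.57 with the lowest 60% of probe sets left out, 1.07 without 8-month knockout replicates 1 and 2, and 1.71 to 2.33 with single arrays left out. The 5 probe sets whose genotype difference grew between 3 and 8 months became 3 with a pseudocount of 1, with no filter or with the lowest 60% left out, 0 without a variance trend, 11 with array weights, 1 without both replicates and 1 to 12 with single arrays left out. The 12 that rose between 3 and 8 months in knockout mice became 5 with the lowest 60% left out (fewer members were tested), 3 with only the groups compared, 7 with 1 probe set per gene, 1 without both replicates and 4 to 16 with single arrays left out. For 5 minus 3 months in knockout mice the count of 1 became 0 without a trend, 5 with array weights, 4 with only the groups compared, 5 without both replicates and 0 to 5 with single arrays left out. For 8 minus 5 months in knockout mice the 0 became 6 with array weights and 0 to 10 with single arrays left out. For the change of the genotype difference, 5 minus 3 months gave 1 with array weights, with only the groups compared and without both replicates, and 0 to 1 with single arrays left out, and 8 minus 5 months gave 0 to 6. The 3 pathway genes lower in knockout mice became 1 with no filter, 1 without a trend and 1 to 3 with single arrays left out. The counts for wild-type ages and sex were 0 under every alternative that could give them, and the fits with no sex term or with only the groups compared give no value for sex. The cause was not tested except where stated. The 3 arrays in a group, and signals near background for Il6ra, Lcn2 in wild type and the ligands, limit what could be seen. No paired analysis was possible because the replicate numbers were given in the order of the records and pair no samples.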
